A study of Arabidopsis thaliana with 10 samples.

Results

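Seedlings of the RiD-BRI1/BAK1 line grown with rapamycin were compared with seedlings of the wild-type accession Col-0 grown with the same chemical. The comparison holds 4 of the 10 libraries of the study, 2 of each line, and they were chosen by their labels alone, not by a measured value. The study sequenced poly(A) RNA of whole Arabidopsis thaliana seedlings, 5 days old and kept in the dark, and its title names the control of plant receptor kinases with a chemical. RiD-BRI1/BAK1, written RiD below, is named in the labels after the receptor kinase BRI1 and its co-receptor BAK1. The promoters behind the line, the number of independent lines and the parts of the proteins it carries are not stated in the sources used here. Both groups, and the mock groups used beside them, had medium with 2 µM of a compound called PPZ in the labels, and no library without PPZ was analysed here. The groups compared were Col-0 with 100 nM rapamycin and RiD with 100 nM rapamycin, each with libraries 1 and 2. Col-0 and RiD mock libraries, 2 of each and without rapamycin, served to show in what the lines differed without the chemical, and RiD libraries with 100 nM brassinolide, 2 in number, enter the fit and are quoted once.

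Brassinosteroids are plant steroid hormones that are bound at the cell surface by BRI1, which then forms an active complex with a SERK co-receptor such as BAK1. The active complex sets off cytoplasmic kinases and phosphatases that turn off the GSK3-like kinase BIN2, and the transcription factors BZR1 and BES1 then accumulate, switch on growth genes such as those for SAUR and cell wall proteins, and switch off genes for making the hormone. Rapamycin is a bacterial macrolide that binds FKBP12, and the pair binds the FRB domain of the TOR kinase, which makes the drug a tool for bringing proteins fused to these domains together. In dark-grown seedlings the hormone is known for driving hypocotyl elongation.

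The deposited values are normalized counts per transcript, which were summed per gene locus. The 10 libraries held, in units of 1000000 reads, 18.4 to 19.9 (libraries 1) or 29.2 to 33.9 (libraries 2), as judged from the step between low values, and 3 reads were worth 2.19 to 4.18 normalized counts. In the first principal component, with 55.0% of the variance, the RiD rapamycin libraries stood apart from both mock groups and from Col-0 with rapamycin, and the RiD brassinolide libraries lay between them. The second component, with 14.9%, separated the libraries numbered 1 from those numbered 2 in every group, and the libraries, paired by number, were fitted with the number as a block. Values of libraries 1 and 2 are given in that order. A log2 difference is RiD minus Col-0 on the scale of log2(normalized count + 1), given ± its standard error, so that positive values are higher in RiD. It was tested by limma over all 23285 loci tested, and a locus with a Benjamini-Hochberg adjusted p under 0.05 is said to be called, higher or lower. No source used here states how the libraries of a group were grown apart, so that a p measures the spread between these libraries, which may be technical. In whole seedlings, fewer cells of a kind and less RNA in each cannot be told apart, and strand use in the authors' counting is not given, so that antisense partners cannot be told apart either. A value under the worth of 3 reads in both libraries of a group makes the log2 difference depend on the constant added.

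With rapamycin on both sides, 12211 of 23285 loci (52.4%) were called between the lines. Of all loci tested 27.1% were higher and 25.3% lower in RiD, and the median over all loci was 0 on the log2 scale. With TMM scaling of the libraries the balance turned, to 5985 higher and 6208 lower. Both RiD libraries lay above both Col-0 libraries in 30.5% of all loci and below them in 30.1%, so that the groups did not overlap in 60.7%. At least a 2-fold difference was reached by 2851 of the loci called higher and 2103 of those called lower, and an 8-fold one by 497 and 268. Without the block 6143 loci (26.4%) were called, of which 6125 were also called with it. The counts of each gene list are read beside these shares, and a list with a share near 52.4% called is near the background. Under mock 0.356% of all loci were called, and 2671 of the 23285 had an unadjusted p under 0.05 by limma. A list with 0 calls under mock is thus near the mock background. The lists and their members were chosen with earlier results of these data known, so that a list's distance from the background is a description.

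BRI1 (AT4G39400), the hormone receptor, had 3962 and 4584 normalized counts in Col-0 with rapamycin and 7122 and 10379.8 in RiD with rapamycin. BAK1 (AT4G33430), its co-receptor, had 2021 and 1972 in Col-0 and 5808 and 5979.7 in RiD. Both RiD libraries were above both Col-0 libraries for each gene, by 2.02-fold for BRI1 (log2 1.01 ± 0.11, adjusted p by limma = 1.76e-06) and 2.95-fold for BAK1 (log2 1.56 ± 0.08, adjusted p = 1.79e-09). The same held without rapamycin, where BRI1 had 3420.1 and 5625 in Col-0 and 8509 and 12206 in RiD, and BAK1 had 2104 and 1899 in Col-0 and 5116 and 4908 in RiD. The mock differences were 1.22 ± 0.11 for BRI1 and 1.33 ± 0.08 for BAK1 (adjusted p = 6.20e-05 and 2.32e-06), and the change between mock and rapamycin was not called, at -0.20 ± 0.15 for BRI1 and 0.24 ± 0.12 for BAK1 (adjusted p = 0.324 and 0.147). Without the block neither mock difference was called (adjusted p = 1 and 0.102), while both differences under rapamycin were (adjusted p = 0.0414 and 1.32e-04). At the level of transcripts, BAK1 lay in AT4G33430.1, and AT4G33430.2 had 8.35 and 3.83 in RiD with rapamycin and 0 in the other 8 libraries. The table holds a single BRI1 transcript. Values summed per locus do not tell reads of the native gene from reads of an added copy.

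Other receptors and inhibitors of the receptor complex also differed between the lines with rapamycin. Of 13 receptor and co-receptor genes 6 were called higher and 3 lower (69.2%, against 52.4% of all loci), with a median log2 difference of 0.22. BRI1 and BAK1 are counted among the 13 and among the 6. BIR1 (AT5G48380), a BAK1-interacting receptor-like kinase that restrains cell death, had 1357 and 1143 in Col-0 and 4059 and 4573 in RiD (log2 1.79 ± 0.10). BIR2 (AT3G28450), a pseudokinase that keeps BAK1 from its partners, and BKK1 (AT2G13790), the closest co-receptor relative of BAK1, were higher by 1.06 ± 0.11 and 1.01 ± 0.11. For all 3 the groups did not overlap, as in 60.7% of all loci, and the mock difference was near 0 (0.09, 0.17 and -0.03). The change was called for all 3 (adjusted p = 7.85e-07, 4.29e-04 and 1.44e-04), as for 33.9% of all loci. BRL3 (AT3G13380) and BRL1 (AT1G55610), receptors of the hormone in vascular tissue, were lower: BRL3 had 333 and 302 in Col-0 and 91.9 and 119 in RiD (log2 -1.59 ± 0.17), and BRL1 differed by -0.76 ± 0.22 (adjusted p = 0.0101). SERK1 (AT1G71830), another co-receptor, was lower, at log2 -0.64 ± 0.13, and BKI1 (AT5G42750), an inhibitor of BRI1 at the membrane, higher by 0.45 ± 0.13. BRL1 lost its call without Col-0 library 1 or RiD library 1 (adjusted p up to 0.165) and BKI1 without RiD library 2 (0.176), and neither was called without the block (0.0589 and 0.193). SERK2 (AT1G34210), SERK5 (AT2G13800), BRL2 (AT2G01950) and BIR3 (AT1G27190) were not called, with differences from -0.27 to 0.22.

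Among cytoplasmic signalling components 8 of 11 were called higher and 0 lower (72.7%, against 52.4% of all loci), with a median of 0.56. BIN2 (AT4G18710), the kinase that inactivates BZR1 (AT1G75080) and BES1 (AT1G19350), had 5928 and 7939 in Col-0 and 8453 and 12099 in RiD (log2 0.56 ± 0.09, adjusted p = 7.29e-05). BSK1 (AT4G35230) and BSK5 (AT5G59010), substrates of BRI1, were higher by 0.54 ± 0.09 and 0.66 ± 0.11. BSL1 (AT4G03080), BSL2 (AT1G08420) and BSL3 (AT2G27210), phosphatases of the BSU1 (AT1G03445) family, were higher by 0.82, 0.72 and 0.40. BSU1 itself and CDG1 (AT3G26940), a kinase that acts on it, were under the worth of 3 reads in Col-0: BSU1 had 1.35 and 1.45 there and 8.35 and 16.8 in RiD, and CDG1 had 2.69 and 0 in Col-0 and 32 and 19.1 in RiD. The count depended on the block, without which 4 of the 11 were called, and BIN2, BSL1, BSL2 and BSL3 were not among them (adjusted p = 0.255, 0.261, 0.146 and 0.233). BSL3 also lost its call without library 2 of either group (adjusted p up to 0.251). BSK3 (AT4G00710), BIL1 (AT2G30980) and BIL2 (AT1G06390) were not called (-0.15, -0.16 and -0.07).

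In the BZR1 family 3 of 6 genes were called higher and 2 lower (83.3%, against 52.4% of all loci). BEH2 (AT4G36780) had the largest difference, with 5134 and 6364 in Col-0 and 489.7 and 609 in RiD, 10.5-fold lower in RiD (log2 -3.39 ± 0.09, adjusted p = 2.58e-12). BEH1 (AT3G50750) had 195 and 214 in Col-0 and 97.4 and 119 in RiD and was lower, at log2 -0.92 ± 0.15. BZR1 and BES1, the factors studied most, were higher by 0.43 ± 0.10 and 0.34 ± 0.08, and BEH4 (AT1G78700) by 0.64 ± 0.10. BZR1 had 652 and 843 in Col-0 and 835 and 1191 in RiD, so that its groups overlapped and the call rests on the pairing by number, as for BES1 with 2253 and 2924 in Col-0 and 2856 and 3696 in RiD. Without the block the calls on BZR1, BES1 and BEH4 were lost (adjusted p = 0.388, 0.328 and 0.164), which left 2 of 6, and those on BEH1 and BEH2 were not (adjusted p = 0.0138 and 8.63e-05).

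Genes for making brassinosteroids were lower in RiD. Of 10, 7 were called lower and 1 higher (80%, against 52.4% of all loci), with a median of -2.67. DWF4 (AT3G50660), the C-22 hydroxylase at a rate-limiting step of the pathway, had 3060.2 and 2741 in Col-0 with rapamycin and 22.3 and 26.8 in RiD, 114-fold lower (log2 -6.83 ± 0.12, adjusted p by limma = 1.19e-14). CPD (AT5G05690), which makes a P450 enzyme of the pathway, had 15462 and 15407 in Col-0 and 1135 and 1261 in RiD (log2 -3.69 ± 0.09, adjusted p = 9.12e-13). BR6OX2 (AT3G30180), which makes castasterone and brassinolide in the last steps, had 7399 and 6039 in Col-0 and 26.4 and 17.6 in RiD (log2 -8.21 ± 0.15). In all 3 genes every RiD library was far below every Col-0 library. BR6OX1 (AT5G38970), a relative of BR6OX2, had 471 and 449 in Col-0 and 1.39 and 1.53 in RiD, and CYP90D1 (AT3G13730) had 171 and 219 in Col-0 and 1.39 and 0 in RiD. The RiD values of BR6OX1 and CYP90D1 are under the worth of 3 reads, so that their log2 differences (-7.55 and -6.98) depend on the constant added. ROT3 (AT4G36380) was lower, at log2 -1.65 ± 0.10, and so was DWF1 (AT3G19820), an earlier sterol enzyme, at -0.52 ± 0.09, the latter not called without the block (adjusted p = 0.123). DWF5 (AT1G50430), a sterol reductase upstream of the hormone pathway, was the member called higher (0.26 ± 0.09), and lost its call without the block (0.193) and without Col-0 library 2, RiD library 1 or RiD library 2 (up to 0.187). STE1 (AT3G02580) and DET2 (AT2G38050) were not called (-0.18 and -0.18). Without rapamycin limma called 0 of the 10, against 0.356% of all loci, with 0 at an unadjusted p under 0.05. DWF4, CPD and BR6OX2 differed by -0.04, 0.12 and 0.00 there. In RiD with brassinolide, DWF4 had 1233 and 1204 normalized counts, CPD 6403 and 8095 and BR6OX2 2865 and 3008.

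The sequence upstream of the synthesis genes, most of which were lower together, was searched for binding motifs. BZR1 binds the element called BRRE, CGTGTG or CGTGCG on either strand, and shares the G-box, CACGTG, with other factors. From 250 bases before to 50 after the gene start in the TAIR10.1 annotation, a BRRE lay in 0 of 10 synthesis genes and 0 of 20 SAUR genes, against 8.51% of 22093 loci tested. The G-box lay in 1 of 10 synthesis genes (DWF5), 0 of 20 SAUR genes and 8.68% of all. In a longer window of 1000 bases before the start, chosen after that first search, 4 of 10 synthesis genes, 5 of 20 SAUR genes and 21.7% of all loci had a BRRE. CPD, BR6OX1 and BR6OX2 had none there, which says only that these letters are not in the window. The sites of the 3 lower synthesis genes that hold one and of SAUR10 (AT2G18010), the SAUR gene with the largest difference, are shown 5′ to 3′ in the gene's direction, with the BRRE in capitals. The deposited table names no genome build, and the genes were located by locus name in TAIR10.1. The sites start 458 (DWF4), 413 (ROT3), 801 (CYP90D1) and 553 (SAUR10) bases before the gene start.
DWF4, chr3:18817831-18817890, minus strand: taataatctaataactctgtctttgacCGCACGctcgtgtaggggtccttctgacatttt
ROT3, chr4:17192888-17192947, minus strand: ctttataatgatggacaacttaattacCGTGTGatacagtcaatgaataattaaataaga
CYP90D1, chr3:4501689-4501748, minus strand: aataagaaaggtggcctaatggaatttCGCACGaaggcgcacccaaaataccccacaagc
SAUR10, chr2:7833202-7833261, plus strand: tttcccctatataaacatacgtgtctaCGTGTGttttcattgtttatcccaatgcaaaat
A match of 6 letters is a description of the sequence and not a bound site.

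Genes that inactivate the hormone went mostly the other way, with 5 of 7 called higher and 1 lower (85.7%, against 52.4% of all loci). Their median was 1.04. BAS1 (AT2G26710), the C-26 hydroxylase CYP734A1, had 161 and 203 in Col-0 and 1899 and 2664 in RiD, 12.3-fold higher (log2 3.63 ± 0.11, adjusted p = 7.42e-12). SOB7 (AT1G17060), another inactivating P450, had 679 and 564 in Col-0 and 2121 and 2336 in RiD (log2 1.84 ± 0.11). Both RiD libraries were above both Col-0 libraries in these genes, as in 30.5% of all loci. UGT73C5 (AT2G36800), which adds glucose to the hormone, was higher by 1.29 ± 0.14 and BEN1 (AT2G45400) by 1.04 ± 0.10. BIA1 (AT4G15400), an acyltransferase, was higher by 0.39 ± 0.15 in a call that was lost without any one of the 4 libraries (adjusted p up to 0.239) and without the block (0.128). PIZ (AT4G31910), a second acyltransferase, was the member called lower, with 312 and 301 in Col-0 and 102 and 71.1 in RiD (log2 -1.84 ± 0.14). UGT73C6 (AT2G36790) was not called (0.96, adjusted p = 0.0615), and UGT73C5 and UGT73C6 are close copies among which reads may have been shared.

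**Figure D1:**
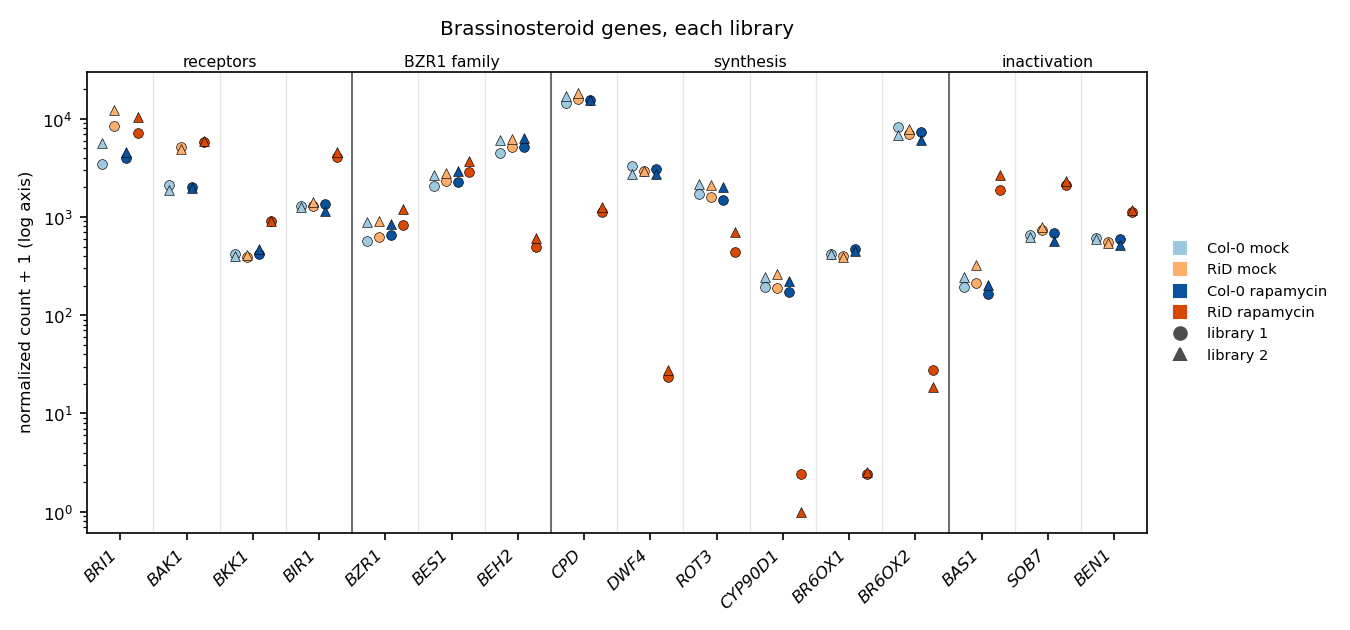
Normalized count + 1 (log axis) of 16 brassinosteroid genes in each library of 4 groups; colours mark the groups and symbols the library number. In RiD with rapamycin DWF4 lies at 22.3 and 26.8 and BR6OX2 at 26.4 and 17.6, far below the other 3 groups, and BAS1 at 1899 and 2664 lies above them, while BRI1 and BAK1 are high in RiD with and without rapamycin.

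The HLH and bHLH growth regulators that act below BZR1 went in both directions. Of the 18 tested 8 were called higher and 6 lower (77.8%, against 52.4% of all loci), with a median of 0.00. Among PRE genes, small HLH proteins that promote elongation, PRE2 (BNQ2 in the reference) had 2.68 and 2.88 in Col-0 and 25 and 29.8 in RiD (log2 2.90 ± 0.47), whereas PRE3 (AT1G74500) had 119 and 84.1 in Col-0 and 1.39 and 0.763 in RiD (log2 -5.62 ± 0.35) and PRE1 (AT5G39860) 9.39 and 17.3 in Col-0 and 1.39 and 0.764 in RiD (log2 -2.75 ± 0.49). The groups did not overlap in any of the 3, nor in 60.7% of all loci. PRE1 and PRE3 were under the worth of 3 reads in RiD, and members of one family stood at opposite ends of the list. PRE6 and PRE5 were called higher, by 1.90 and 1.08. AIF1 (AT3G05800), a bHLH protein that restrains growth, had 101 and 94.1 in Col-0 and 566 and 666 in RiD (log2 2.64 ± 0.15). IBH1 was called lower, at log2 -2.08, and so was AIF3, at -0.65, whereas AIF2 was called higher by 0.69. The calls on AIF2 and AIF3 were not kept in every alternative fit (adjusted p by limma up to 0.0632 and 0.210). CES (AT1G25330) was too low to be tested.

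SAUR genes encode small proteins that turn on plasma membrane proton pumps in elongating cells. Of 20, 19 were called higher and 0 lower (95%, against 52.4% of all loci), with a median of 2.97. SAUR9 (AT4G36110) had 29.5 and 41.2 in Col-0 and 1554 and 1740.2 in RiD, 45.8-fold higher (log2 5.52 ± 0.21, adjusted p = 6.04e-11). SAUR10 had 2.67 and 2.83 in Col-0 and 427 and 306 in RiD (log2 6.60 ± 0.40). SAUR68 (AT1G29490) and SAUR61 (AT1G29420) differed by 4.53 ± 0.55 and 4.22 ± 0.64, from Col-0 values of 2.68 and 10.8 for SAUR68 and 0 and 2.17 for SAUR61, the latter under the worth of 3 reads. In all 20 genes both RiD libraries were above both Col-0 libraries, against 30.5% of all loci. SAUR19 (AT5G18010), the member not called, had 41.5 and 138 in Col-0 and 588 and 479.9 in RiD (log2 2.79 ± 0.84, adjusted p = 0.0504) and was called without the block (adjusted p = 0.0146). Without rapamycin limma called 0 of the 20, against 0.356% of all loci, with 3 at an unadjusted p under 0.05 and a median of -0.40. For the change between mock and rapamycin 19 were called, against 33.9% of all loci. SAUR19 to SAUR24 (AT5G18080) and SAUR61 to SAUR68 are close copies side by side in the genome, so that the split of reads among them is uncertain.

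Auxin genes were mixed, with 10 of 25 called higher and 9 lower (76%, against 52.4% of all loci) and a median of 0.21. GH3.1 (AT2G14960), an enzyme that joins auxin to amino acids, had 10.8 and 6.54 in Col-0 and 372 and 482 in RiD (log2 5.49 ± 0.40), and GH3.2 (AT4G37390), of the same family, had 266 and 184 in Col-0 and 1915 and 1847 in RiD (log2 3.08 ± 0.12). IAA6 (AT1G52830), a repressor of the auxin response, had 24.2 and 21 in Col-0 and 449 and 351 in RiD (log2 4.08 ± 0.21). Lower in RiD were IAA29 (AT4G32280), a repressor of the same family (-2.50 ± 0.14), and LAX3 (AT1G77690), an auxin influx carrier, with 1956 and 2396 in Col-0 and 532 and 665 in RiD (-1.86 ± 0.09). These 5 genes, named for their large differences, were called with and without the block, while the list's count without the block was 7 higher and 4 lower.

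Among cell wall genes the families differed. Of 18 xyloglucan endotransglucosylases, enzymes that cut and rejoin a wall polymer, 10 were called higher and 4 lower, with a median of 0.75. That is 77.8% called, against 52.4% of all loci. XTH23 (AT4G25810) had 277 and 274 in Col-0 and 1666 and 1552 in RiD (log2 2.54 ± 0.12), and XTH30 (AT1G32170) and XTH22 (AT5G57560) were higher by 1.67 ± 0.08 and 1.61 ± 0.11. XTH15 (AT4G14130) had 131839 and 149425 in Col-0 and 32436 and 42602 in RiD (log2 -1.92 ± 0.08), and XTH16 (AT3G23730) was lower, at log2 -0.96 ± 0.11. Expansins, which loosen the wall, had 3 of 10 called higher and 6 lower (90%, against 52.4% of all loci) and a median of -0.52. EXPA5 (AT3G29030) had 428 and 349 in Col-0 and 26.4 and 28.3 in RiD (log2 -3.77 ± 0.14), and EXPA2 (AT5G05290) and EXPA15 (AT2G03090) were lower, at log2 -2.69 ± 0.37 and -2.49 ± 0.23. EXPA8 (AT2G40610), with 482 and 509 in Col-0 and 2608 and 3299.8 in RiD, was higher by 2.56 ± 0.10, and EXPA1 (AT1G69530) by 1.71 ± 0.11. These XTH and EXPA genes, named for their large differences, had groups that did not overlap, as 60.7% of all loci did.

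Genes for cellulose of the primary wall had 8 of 9 called higher and 0 lower (88.9%, against 52.4% of all loci). The median was 0.48, and all differences were small. CESA5 (AT5G09870) was higher by 0.84 ± 0.12, CESA6 (AT5G64740) by 0.58 ± 0.12, COB (AT5G60920), a membrane-anchored protein of oriented cellulose deposition, by 0.56 ± 0.09, and KOR1 (AT5G49720), a membrane-bound glucanase, by 0.52 ± 0.08. The count fell to 2 without the block, when CESA6 and COB were not called (adjusted p = 0.153 and 0.139), and to 4 without Col-0 library 2 or RiD library 2. Proton pumps and aquaporins had 13 of 25 called higher and 5 lower (72%, against 52.4% of all loci), and 8 and 3 without the block. Their median was 0.34. PIP2;1 (AT3G53420), a water channel of the plasma membrane, had 25744 and 18782 in Col-0 and 66838 and 58109.7 in RiD, 2.83-fold higher, and PIP2;7 (AT4G35100) was higher by 1.26 ± 0.08. PIP2;8 (AT2G16850) was lower (-2.03 ± 0.16), and so was the proton pump AHA7 (-1.24 ± 0.39), which lost its call without the block (adjusted p = 0.094) and without library 2 of either group (up to 0.191).

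**Figure D2:**
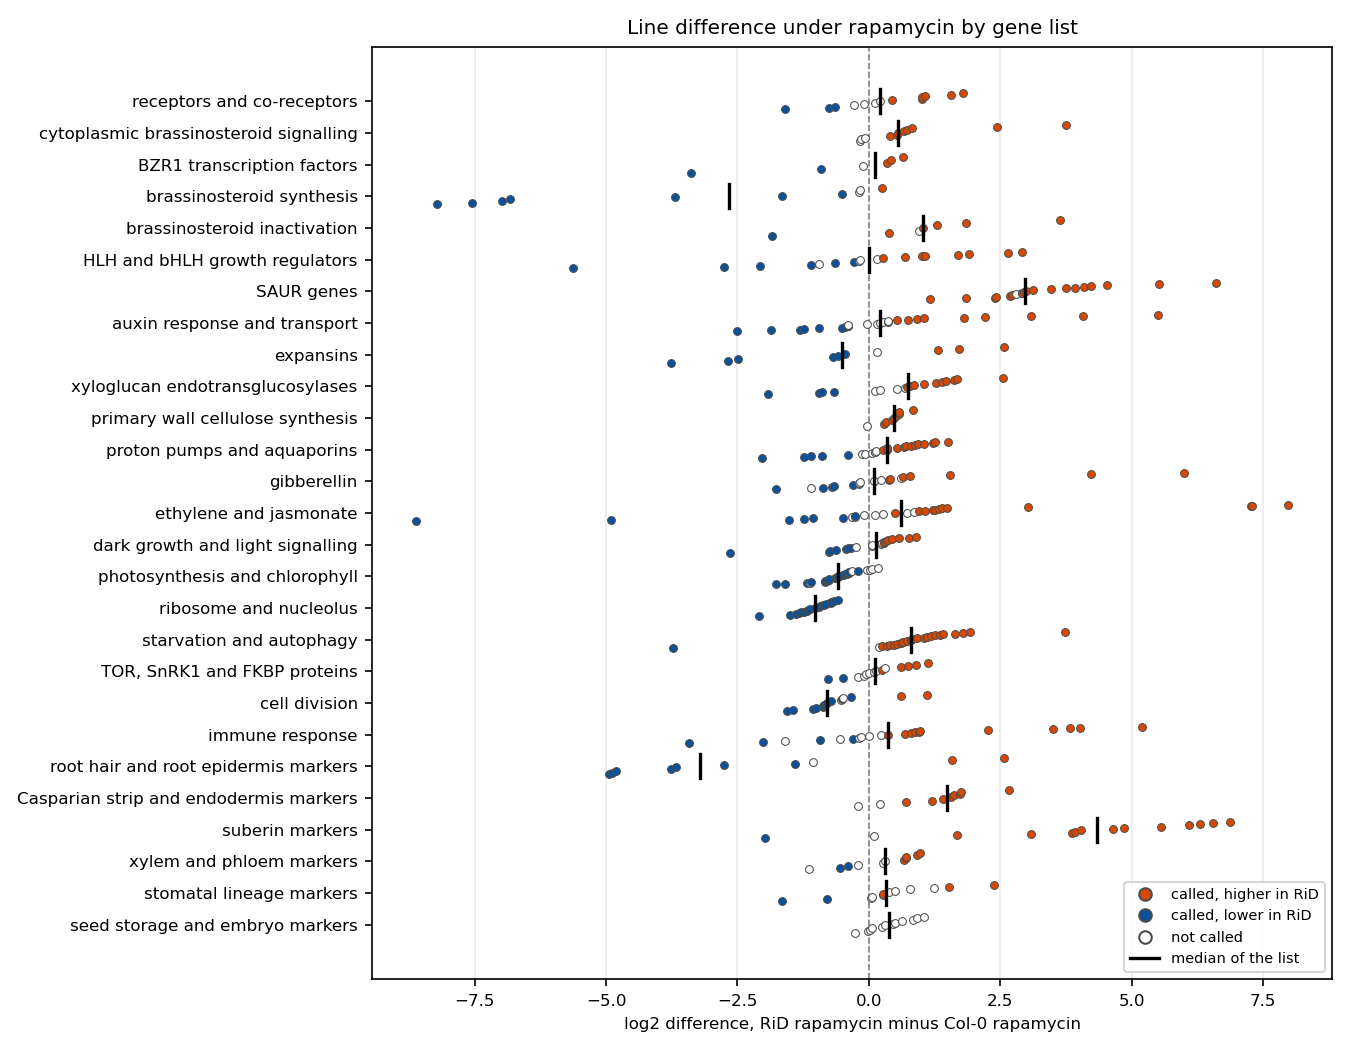
Log2 difference, RiD rapamycin minus Col-0 rapamycin, of each tested member of 27 gene lists; orange and blue points were called higher and lower by limma with the replicate block, white points were not called and black bars are list medians. SAUR and suberin lists lie to the right (medians 2.97 and 4.34), and hormone synthesis and root hair lists to the left (-2.67 and -3.22), while all loci have a median of 0.

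Gibberellin and ethylene genes held single members with very large differences. In the gibberellin list 7 of 19 were called higher and 5 lower, a share of 63.2%, near the 52.4% of all loci. The list's median was 0.10, and 4 were called higher and 3 lower without the block. GA2OX8 (AT4G21200), which inactivates gibberellin precursors, had 8.06 and 4.35 in Col-0 and 424 and 461 in RiD (log2 5.99 ± 0.36), and GA20OX1 (AT4G25420), a synthesis enzyme, had 5.38 and 11.6 in Col-0 and 117 and 236 in RiD (log2 4.22 ± 0.30). Genes of opposite function were thus both higher in RiD. GID1B (AT3G63010), a gibberellin receptor, was higher by 1.54 ± 0.13, RGL2 (AT3G03450), a DELLA repressor, lower, at log2 -1.77 ± 0.27, and GA2OX4 (AT1G47990) lower, at log2 -0.87 ± 0.25, a call lost without RiD library 1 (adjusted p = 0.0642). Of 26 ethylene and jasmonate genes 12 were called higher and 7 lower (73.1%, against 52.4% of all loci), and the median was 0.61. The ACC synthases, which catalyse the committed step to ethylene, spread over the whole range. ACS5 (AT5G65800) had 5.38 and 7.99 in Col-0 and 1569.6 and 2329 in RiD (log2 7.98 ± 0.22), and ACS8 (AT4G37770) had 2.69 and 5.09 in Col-0 and 634 and 857 in RiD (log2 7.28 ± 0.29). ACS4 (AT2G22810) was at 0 in both Col-0 libraries and at 178 and 133 in RiD, at least 50.0-fold higher when Col-0 is set to 3 reads per library. ACS11 (AT4G08040) went the other way, with 704 and 522 in Col-0 and 1.39 and 0 in RiD, the latter under the worth of 3 reads (log2 -8.62 ± 0.22). VSP2 (AT5G24770), a storage protein induced by jasmonate, had 39 and 52.2 in Col-0 and 1.39 and 0 in RiD, also under the worth of 3 reads. In each of these genes the groups did not overlap, as in 60.7% of all loci. The mock difference was called in none of them, and in 0.356% of all loci.

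The listed genes for ribosomal proteins and nucleolar factors were lower in RiD with rapamycin. All 19 genes of the ribosome and nucleolus list were called lower, against 25.3% of all loci, and 0 higher. The median was -1.02, and 13 were called without the block. FIB2 (AT4G25630), a fibrillarin of the nucleolus, had 450.4 and 399 in Col-0 and 127 and 76.5 in RiD (log2 -2.10 ± 0.15). CBF5 (AT3G57150), which modifies ribosomal RNA, had 1698 and 1107 in Col-0 and 573 and 405 in RiD (log2 -1.51 ± 0.11), and NOP58 (AT5G27120) and RPS6A (AT4G31700), a protein of the small subunit, were lower, at log2 -1.33 ± 0.12 and -1.39 ± 0.10. Both RiD libraries were below both Col-0 libraries in all 19, against 30.1% of all loci. Without rapamycin limma called 0 of them, against 0.356% of all loci, and the median was -0.11. An unadjusted p under 0.05 was reached by 6 of the 19, against 2671 of 23285 loci.

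Starvation and autophagy genes moved the other way, with 25 of 27 called higher and 1 lower (96.3%, against 52.4% of all loci). Their median was 0.80. DIN2 (AT3G60140), a beta-glucosidase induced in the dark, had 6881 and 4053 in Col-0 and 68352 and 72584 in RiD (log2 3.74 ± 0.20, adjusted p = 1.91e-06). DIN9 (AT1G67070) was higher by 1.92 ± 0.13 and TPS11 (AT2G18700), of the trehalose phosphate synthase family, by 1.79 ± 0.10. DIN11 (AT3G49620) was the member called lower, with 212 and 154 in Col-0 and 12.5 and 13 in RiD (log2 -3.72 ± 0.20). Without the block 16 were higher and 1 lower. Without rapamycin limma called 0 of the 27, against 0.356% of all loci, and the median was 0.16. An unadjusted p under 0.05 was reached by 8 of the 27, against 2671 of 23285 loci.

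The Arabidopsis genes FKBP12 and TOR, which bear the names of the proteins in the general account of rapamycin above, had small differences. Whether the drug bound either protein in these seedlings was not tested. FKBP12 (AT5G64350) had 4939 and 3760.3 in Col-0 and 3356 and 1863 in RiD, with both RiD libraries below both Col-0 libraries. Its log2 difference was -0.79 ± 0.11 (adjusted p by limma = 2.08e-05, and 0.208 without the block). TOR (AT1G50030) had 1042 and 1642 in Col-0 and 1231 and 3246 in RiD, so that the groups overlapped. It was called higher by 0.61 ± 0.21 (adjusted p = 0.0445), but not without the block (0.547) nor without either Col-0 mock library, Col-0 library 2 or RiD library 2 (up to 0.296). Of 14 TOR, SnRK1 and FKBP genes tested 5 were called higher and 2 lower, close to the 52.4% of all loci, with a median of 0.12, and 2 and 1 without the block. S6K2 (AT3G08720), a ribosomal protein kinase below TOR, had 568 and 640.1 in Col-0 and 1248 and 1383 in RiD (log2 1.12 ± 0.10), and KIN11 (AT3G29160), a catalytic subunit of the energy sensor SnRK1, was higher by 0.90 ± 0.09. RAPTOR1B (AT3G08850), a partner of TOR, was higher by 0.74 ± 0.14 in groups that overlapped, not called without the block (0.488), and TWD1 (AT3G21640), an FKBP-like protein, lower, at log2 -0.50 ± 0.12.

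Photosynthesis and chlorophyll genes had 0 of 31 called higher and 25 lower (80.6%, against 52.4% of all loci), and 9 lower without the block. Their median was -0.58. PORA (AT5G54190) and PORB (AT4G27440), which make chlorophyllide in light and are abundant in dark-grown plants, were lower. PORA had 48229.7 and 41947 in Col-0 and 24115 and 18014 in RiD (log2 -1.11 ± 0.09), and PORB had 67002 and 57866 in Col-0 and 32289 and 23478 in RiD (log2 -1.18 ± 0.10). LHCB1.3 (AT1G29930), a light-harvesting protein, had 469877 and 388059 in Col-0 and 204513 and 96370.1 in RiD (log2 -1.60 ± 0.18), and LHCB1.2 (AT1G29910) was lower, at log2 -1.76 ± 0.24. LHCB1 genes are near-identical copies, and the share of reads of each is uncertain. Cell division genes had 12 of 16 called lower and 2 higher (87.5%, against 52.4% of all loci), and 7 and 1 without the block. Their median was -0.80. CYCD3;3 (AT3G50070), a D-type cyclin, had 325 and 226 in Col-0 and 107 and 78.8 in RiD (log2 -1.55 ± 0.14), and PCNA1 (AT1G07370) and MCM7 (AT4G02060), which serve DNA replication, were lower, at log2 -1.45 ± 0.20 and -1.06 ± 0.15. The mitotic genes CDKB2;1 (AT1G76540) and CYCB1;2 (AT5G06150) were higher, by 1.11 ± 0.15 and 0.61 ± 0.17, the second not called without the block (0.0624) or without library 1 of either group (up to 0.0976).

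Among regulators of growth in the dark and of light responses 8 of 20 were called higher and 7 lower, with a median of 0.14. That is 75% called, against 52.4% of all loci. ELIP2 (AT4G14690), a light-stress protein, had 189 and 144 in Col-0 and 30.6 and 21.4 in RiD (log2 -2.64 ± 0.39), and the photoreceptor gene PHYB (AT2G18790) was lower, at log2 -0.76 ± 0.14. PIF5 (AT3G59060), a bHLH factor of dark growth, had 387 and 617 in Col-0 and 667 and 1258 in RiD and was higher by 0.90 ± 0.13, and ELIP1 (AT3G22840), whose groups overlapped, by 0.76 ± 0.28. ELIP1 was also higher in RiD under mock (1.57 ± 0.28). The list had 4 calls without the block, when PIF5 and ELIP1 were not called (adjusted p = 0.264 and 0.341), and 9 without RiD library 2. ELIP1 also lost its call without Col-0 library 2, RiD library 1 or RiD library 2 (up to 0.196).

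Immune genes had 11 of 21 called higher and 4 lower (71.4%, against 52.4% of all loci) and a median of 0.36. FRK1 (AT2G19190), a kinase gene used as a marker of pattern-triggered immunity, had 0 and 1.46 in Col-0, under the worth of 3 reads, and 58.5 and 54.4 in RiD (log2 5.19 ± 0.62). WRKY70 (AT3G56400), a transcription factor of salicylic acid defence, had 76.6 and 69.6 in Col-0 and 1033 and 1059 in RiD (log2 3.82 ± 0.14), and WRKY46 (AT2G46400) and WRKY53 (AT4G23810) were higher by 4.02 ± 0.37 and 3.49 ± 0.33. PAD3 (AT3G26830), the last enzyme of camalexin synthesis, had 80.7 and 64.6 in Col-0 and 5.57 and 6.12 in RiD (log2 -3.42 ± 0.33). PR1 (AT2G14610), a secreted defence protein, was lower, at log2 -2.02 ± 0.51, a call lost without RiD library 2 (adjusted p = 0.0965). The groups did not overlap in these 6 genes, named for their large differences, nor in 60.7% of all loci.

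Markers of root cell types were read as a check of what the seedlings held. Of 10 root hair and root epidermis markers 7 were called lower, 2 higher and 1 was not called, with a median of -3.22. That is 90% called, against 52.4% of all loci. The wall genes EXPA7 (AT1G12560) and EXPA18 (AT1G62980), specific to root hairs, were among the lower ones. EXPA7 had 67.1 and 47.8 in Col-0 and 1.39 and 0.764 in RiD (log2 -4.81 ± 0.47), and EXPA18 had 33.6 and 47.8 in Col-0 and 0 and 0.764 in RiD (log2 -4.95 ± 0.49). PRP3 (AT3G62680) and LRX1 (AT1G12040), which build the hair cell wall, were lower, at log2 -4.88 ± 0.51 and -3.77 ± 0.54. EXPA7, EXPA18 and PRP3 were under the worth of 3 reads in both RiD libraries, and LRX1 had 16.1 and 42.9 in Col-0 and 0 and 3.06 in RiD. GL2 (AT1G79840), the regulator that keeps epidermal cells from forming hairs, had 68.6 and 114 in Col-0 and 338 and 832 in RiD (log2 2.57 ± 0.17), and WER (AT5G14750), which acts before it, was higher by 1.58 ± 0.28. The summed level of the 10 markers was 467 and 500 in Col-0 and 476 and 951 in RiD, and GL2 made up most of the latter.

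Markers of the Casparian strip, the barrier of the root endodermis, had 8 of 10 called higher and 0 lower, with a median of 1.49. That is 80% called, against 52.4% of all loci. CASP5 (AT5G15290), a scaffold protein of the strip, had 434 and 327 in Col-0 and 1972 and 2918 in RiD (log2 2.67 ± 0.24), and CASP1 (AT2G36100), CASP2 (AT3G11550) and CASP4 (AT5G06200) were higher by 1.75 ± 0.13, 1.61 ± 0.12 and 1.74 ± 0.13. Their summed level was 11092 and 9381 in Col-0 and 23961 and 24894 in RiD. Of 14 markers of suberin, the waxy polymer laid down outside the endodermal membrane, 12 were called higher and 1 lower. That is 92.9% called, against 52.4% of all loci. The median was 4.34, and 4.29 when genes at 0 in Col-0 are held at their bound. CYP86A1 (AT5G58860), which makes suberin monomers, had 5.38 and 1.45 in Col-0 and 413 and 512 in RiD (log2 6.87 ± 0.41). CYP86B1 (AT5G23190) had 2.69 and 2.18 in Col-0 and 256 and 209.6 in RiD (log2 6.09 ± 0.47). The Col-0 values of CYP86B1 are under the worth of 3 reads, so that its log2 difference depends on the constant added. ABCG6 (AT5G13580), a transporter of suberin parts, had 2.69 and 8 in Col-0 and 377 and 546 in RiD (log2 6.30 ± 0.71). FAR5 (AT3G44550), a fatty acyl reductase, was at 0 in both Col-0 libraries and at 83.6 and 101 in RiD, at least 29.6-fold higher with Col-0 at 3 reads per library. FAR1 (AT5G22500), of the same family, was the member called lower, with 14033 and 16346 in Col-0 and 3065 and 4846 in RiD (log2 -1.97 ± 0.10). The list's summed level was 18684 and 21323 in Col-0, where FAR1 held most of it, and 17144 and 20362 in RiD, so that the sum does not show how the other members differed. Without rapamycin limma called 0 of the 10 root hair, 0 of the 10 endodermis and 0 of the 14 suberin markers between the lines. At an unadjusted p under 0.05 there were 1, 2 and 4. Of all loci 0.356% were called under mock. The part of these markers in the other differences between the lines was not tested.

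**Figure D3:**
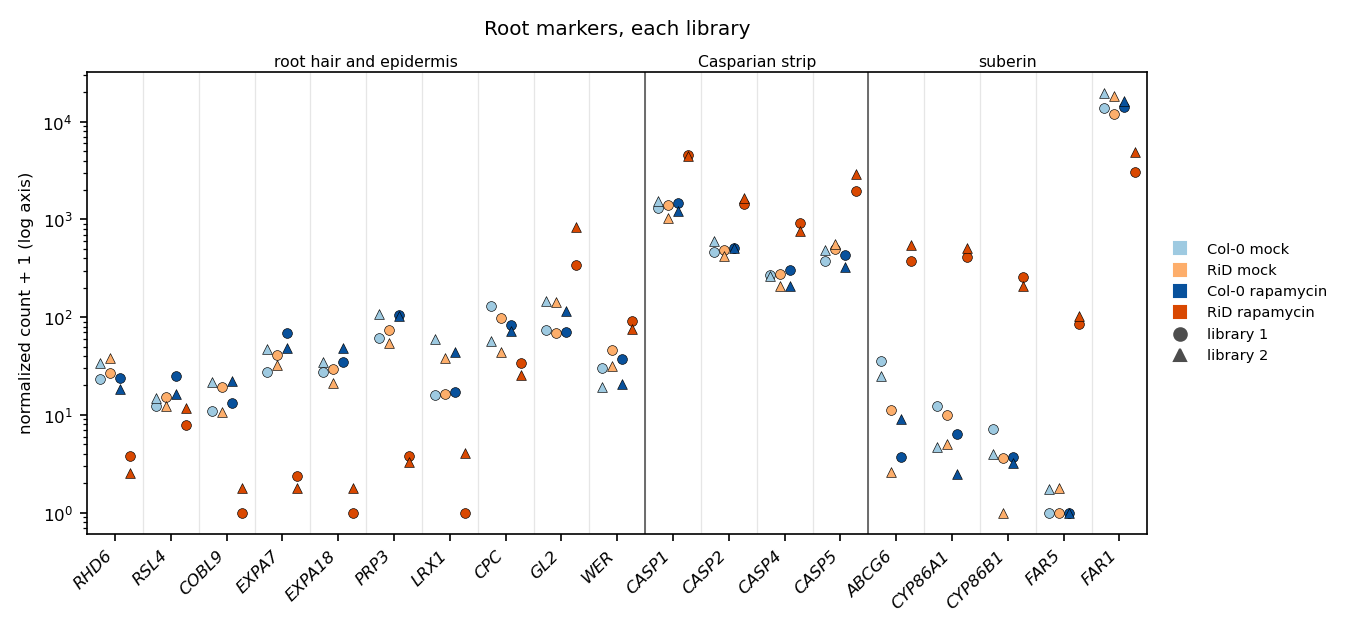
Normalized count + 1 (log axis) of root hair and epidermis, Casparian strip and suberin markers in each library of 4 groups. RiD with rapamycin lies below the other groups for 8 of the 10 root hair and epidermis genes and for FAR1, and above them for GL2, WER, the CASP genes, ABCG6, CYP86A1, CYP86B1 and FAR5.

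The other marker lists differed less or not at all. Of 11 xylem and phloem markers 5 were called higher, 2 lower (63.6%, near the 52.4% of all loci), with a median of 0.30. CESA8 (AT4G18780), LAC4 (AT2G38080) and LAC17 (AT5G60020) of the secondary wall and XCP2 (AT1G20850), a xylem protease, were higher by 0.97 ± 0.20, 0.92 ± 0.16, 0.71 ± 0.19 and 0.71 ± 0.12, and the phloem genes APL (AT1G79430) and SUC2 (AT1G22710) lower, at log2 -0.56 ± 0.12 and -0.40 ± 0.11. The count was 2 without the block, when CESA8, LAC4, LAC17 and SUC2 were not called (adjusted p = 0.178, 0.187, 0.251 and 0.135), and 4 without RiD library 2. LAC17 lost its call without library 2 of either group, and SUC2 without Col-0 library 1 or RiD library 2. Stomatal lineage markers had 3 of 12 called higher and 2 lower, a share of 41.7%, below the 52.4% of all loci. TMM (AT1G80080), a receptor-like protein of stomatal patterning, had 82 and 63.9 in Col-0 and 387 and 371 in RiD (log2 2.37 ± 0.16), and SPCH (AT5G53210), which starts the lineage, was higher by 1.53 ± 0.39. SDD1 (AT1G04110) and EPF1 (AT2G20875) were lower, at log2 -1.65 ± 0.49 and -0.79 ± 0.29. This count fell to 2 without the block or without RiD library 2 and to 3 without Col-0 library 2 or RiD library 1, and TMM alone among the 4 named kept its call in each of these settings. SDD1 lost its call without Col-0 library 1 or RiD library 2, and EPF1 without any one of the 4 libraries. Of 12 seed storage and embryo markers limma called 0 with or without the block, with 0 at an unadjusted p under 0.05, 3 with a fit of the compared libraries alone and 1 without either Col-0 rapamycin library. Their summed level was 7614 and 12880 in Col-0 and 8517 and 24744 in RiD with rapamycin and ran from 331 to 33498 in the other 6 libraries.

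Outside the lists, the 8 higher and 8 lower loci with the largest differences were read among called loci with a symbol, groups that did not overlap and a mean of at least 100 in the higher group. CYP78A10 (AT1G74110), of a P450 family that promotes organ growth, was at 0 in both Col-0 libraries and at 1149 and 1433 in RiD, at least 415-fold higher with Col-0 at 3 reads per library. NRT2:1 (AT1G08090), the high-affinity nitrate transporter, was at 0 in Col-0 and at 193 and 368 in RiD, at least 90.0-fold higher. BCB (AT5G20230), a copper-binding protein of the phytocyanin family, had 36.3 and 18.8 in Col-0 and 12784 and 10267 in RiD (log2 8.72 ± 0.47). JRG21 (AT3G55970), an oxygenase induced by jasmonate, CYP706A2 (AT4G22710), RGF9 (AT5G64770), a root peptide, MIOX4 (AT4G26260), an inositol oxygenase, and PELPK1 (AT5G09530), a wall protein, were higher by 7.33, 7.27, 6.92, 6.76 and 6.73 on the log2 scale, CYP706A2 and RGF9 from under the worth of 3 reads. The largest of the lower differences was that of MYB55 (AT4G01680), a transcription factor, with 1302 and 1802 in Col-0 and 4.17 and 5.35 in RiD (log2 -8.06 ± 0.13, adjusted p = 8.99e-15). CYP82F1 (AT2G25160) was at 0 in both RiD libraries and at 176 and 304 in Col-0, at least 74.1-fold lower with RiD at 3 reads per library. ARR3 (AT1G59940), a response regulator of cytokinin signalling, was at 0 in RiD and at 107 and 105 in Col-0, at least 32.8-fold lower. The amino acid transporter AAP2 (AT5G09220) had 2826 and 2650.1 in Col-0 and 44.5 and 29.8 in RiD (log2 -6.19 ± 0.13). LTP6 (AT3G08770), a lipid transfer protein, CLE2 (AT4G18510), a peptide hormone, HB4 (AT2G44910), a homeodomain factor of shade growth, and the beta-glucosidase BGLU18 (AT1G52400) were lower, at log2 -7.52, -6.55, -6.32 and -6.12, with LTP6 and CLE2 under the worth of 3 reads in RiD. The lines did not differ by a call in 15 of these 16 genes without rapamycin, where 0.356% of all loci were called, and the exception was PELPK1.

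The line difference without rapamycin was small. Between RiD mock and Col-0 mock 83 of 23285 loci (0.356%) were called, 53 higher and 30 lower, and 35 of them by at least 2-fold. Without the block limma called 0, with 695 loci at an unadjusted p under 0.05 (2671 with the block). Leaving out 1 library moved the count from 25 (without Col-0 mock library 1) to 343 (without Col-0 rapamycin library 2). Of the 434 listed loci tested, 12 were called under mock, BEE1 (AT1G18400) and IAA17 (AT1G04250) lower (-0.62 and -0.53) and 10 higher. Beside BRI1 and BAK1 the higher ones were EXPA8 (0.50), ACO3 (0.75), ELIP1, WRKY70 (0.76) and the chlorophyll genes LHCB1.1 (AT1G29920), LHCB2.1 (AT2G05100), LHCB3 (AT5G54270) and CAO (2.54, 1.06, 0.53 and 0.55), which were named for their mock call after it was seen. Of the 83 loci, 56 were called with the same sign under rapamycin, 42 higher and 14 lower, which is 67.5% of the mock calls and 0.459% of the rapamycin calls. In either direction 75 of the 83 (90.4%) were called under rapamycin, against 52.4% of all loci, and the same-sign share is read beside the 27.1% of all loci called higher and 25.3% called lower there. The 2 comparisons share no library, but they come from one fit with the same estimate of spread for each locus. A locus with a small estimated spread is thereby favoured for a call in both, so that these shares are a description. For 27 of the 56 the change between mock and rapamycin was not called. They lay on all 5 nuclear chromosomes, with 12, 12, 13, 10 and 9 loci on chromosomes 1 to 5.

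IRT1 (AT4G19690), the iron transporter of the root surface, led the 56 by the smaller of its differences under mock and rapamycin, with 23.8 and 19.8 in Col-0 mock, 321 and 546 in RiD mock, 4.03 and 13.8 in Col-0 with rapamycin and 481 and 408 in RiD with rapamycin (log2 4.21 ± 0.42 under mock and 5.69 ± 0.42 under rapamycin). FRO2 (AT1G01580), the ferric reductase that works with it, had 17.4 and 22 in Col-0 mock, 87.8 and 172 in RiD mock, 16.1 and 17.5 in Col-0 with rapamycin and 73.8 and 87.2 in RiD with rapamycin (log2 2.59 ± 0.28 and 2.19 ± 0.28). In both genes each RiD library exceeded each Col-0 library, with or without the chemical. AT2G44220, AT2G33160 and AT3G05950 were higher in RiD in both conditions, by 3.89, 2.23 and 2.40 under mock and 4.12, 4.03 and 2.01 under rapamycin. AT2G44220 had 0 and 1.47 in Col-0 mock, under the worth of 3 reads, so that its mock difference depends on the constant added. SADHU3-2 (AT3G42658), a transposon-derived locus, was higher by 1.65 and 2.16. AT2G01422 was lower, at log2 -2.26 under mock and -2.28 under rapamycin, and so was AT3G05727, at -1.71 and -7.28. AT3G05727 had 1.39 and 0 in RiD with rapamycin, under the worth of 3 reads. Its difference under rapamycin and its change between the conditions therefore depend on the constant added. The change between the conditions was called for AT2G33160 and AT3G05727 among these 8. None of the 8 mock differences was called without the block.

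**Figure D4:**
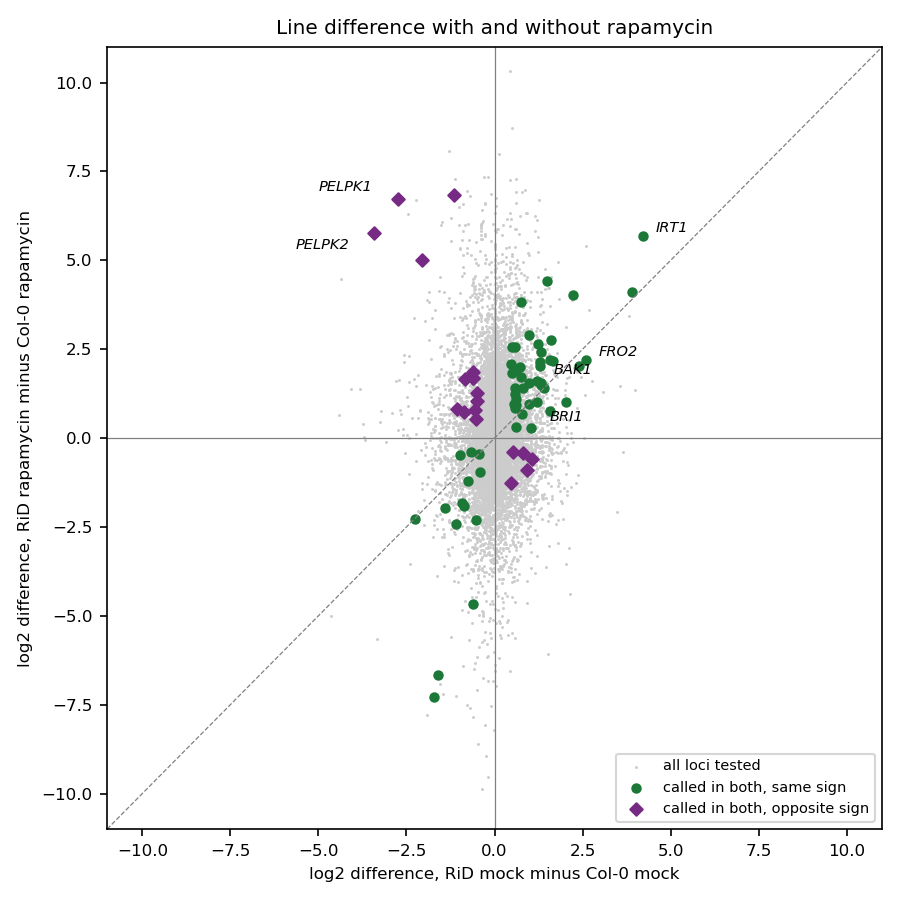
Log2 difference between the lines under mock (x axis, RiD mock minus Col-0 mock) and under rapamycin (y axis, RiD rapamycin minus Col-0 rapamycin) for 23285 loci; green circles were called in both with the same sign (56), purple diamonds with opposite sign (19), and the dashed line marks equal differences. Most loci spread along the y axis, whereas BRI1, BAK1 and FRO2 lie near the dashed line.

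The change of the line difference, rapamycin minus mock, was called for 7893 loci (33.9%), 4238 with a higher and 3655 with a lower value under rapamycin, and for 2341 (10.1%) without the block. Of the 12211 loci called under rapamycin, 7630 were also called for the change, and 3991 of the 4954 with at least a 2-fold difference were. Opposite signs under mock and rapamycin, both called, were found for 19 loci, and in all 19 the change was called. PELPK1, a wall protein rich in proline, had 241 and 207 in Col-0 mock, 45.2 and 23.2 in RiD mock, 39 and 34.1 in Col-0 with rapamycin and 3908 and 4023 in RiD with rapamycin. PELPK2 (AT5G09520), its neighbour and close relative, had 20.6 and 11 in Col-0 mock, 1.29 and 0 in RiD mock, 1.34 and 4.31 in Col-0 with rapamycin and 247 and 150.3 in RiD with rapamycin. In both, Col-0 mock lay above RiD mock and above Col-0 with rapamycin, and RiD with rapamycin lay far above all 3. AT4G38080 had 9.02 and 9.57 in RiD mock and 1195 and 1479 in RiD with rapamycin, and AT4G36610 had 2.58 and 2.4 in RiD mock and 207 and 169 in RiD with rapamycin. AT5G44580 and AT5G24580 differed by -0.83 and -0.62 under mock and by 1.65 and 1.85 under rapamycin.

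**Figure D5:**
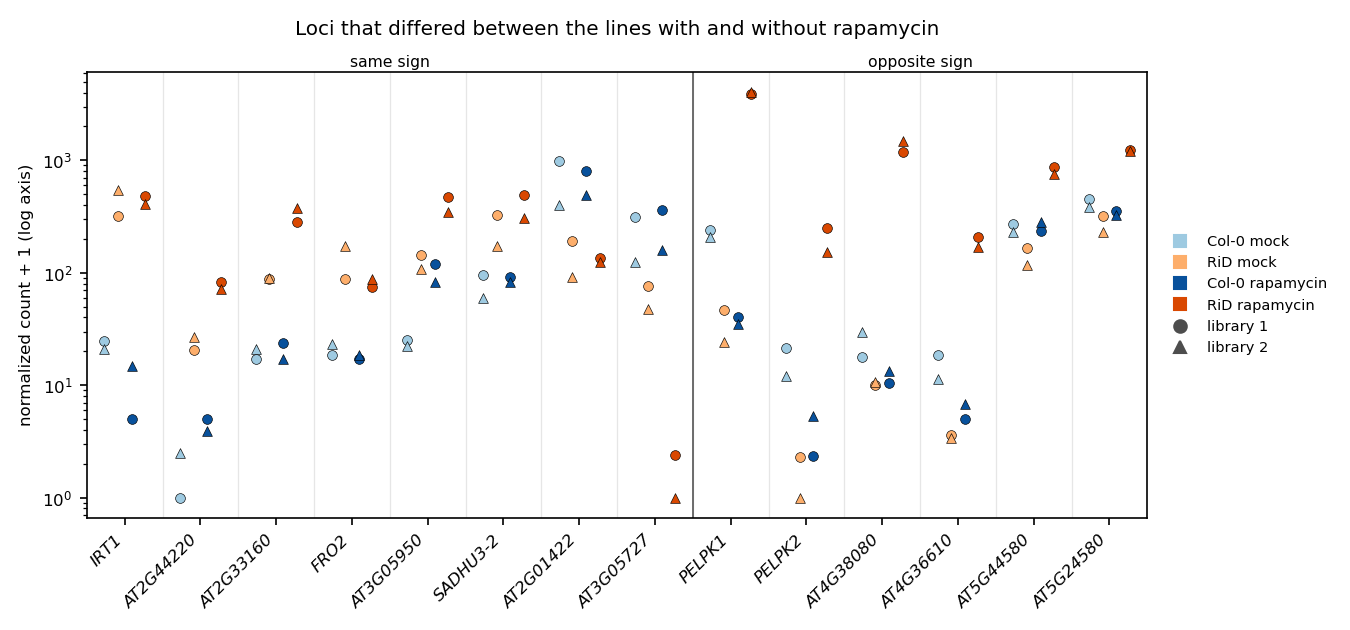
Normalized count + 1 (log axis) in each library of 4 groups for 8 loci called between the lines in both conditions with the same sign and 6 with opposite sign. IRT1 and FRO2 are high in RiD with and without rapamycin, and PELPK1 and PELPK2 are low in RiD mock and high in RiD with rapamycin.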

How the data were processed

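Whole seedlings were sequenced with a stranded poly(A) RNA kit, per the labels' protocols. The authors deposited a signal value per transcript and library, with no unit in the header, for 40812 transcripts in 10 libraries, 2 in each of 5 groups. Salmon and DESeq2 are named in the submitters' processing notes; versions, settings, strand use, genome build and annotation are not stated in the sources used here. The values are decimals that sum to 23244655 to 26987555 per library and were taken as normalized counts. They are not whole reads, and no count test was run. The number of reads per library was estimated from the step between low values, and floors of 3 reads cover counting error only.

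Transcripts were summed to 32753 loci, of which 5880 had several transcripts. The 23285 loci that reached 1 normalized count in 2 or more libraries were tested on log2(value + 1) with limma 3.58.1 (R 4.3.3, trend and robust moderation), with all 5 groups and the library number as terms, 4 residual degrees of freedom and Benjamini-Hochberg adjustment over all loci. The design expected counts or normalized values, and limma was used since the values were the latter. The 3 contrasts were RiD minus Col-0 under rapamycin, the same under mock, and their difference. Libraries are paired by number in the comparison's definition. As a check, deviations from the group means of same-numbered libraries correlated over loci at r = 0.320 to 0.511 in all 10 pairs of groups; what the number marks is not stated in the sources used here. The code was tested on simulated data.

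Alternatives were no block, other constants (0.5 and 5), other filters, trimmed mean of M values (TMM) factors computed on the values, no trend or robust moderation, a fit of the compared libraries alone, and each library left out. The 27 gene lists (438 members) and all members were chosen with earlier results of these data known. Genes were named by rule: BRI1, BAK1, TOR and FKBP12; in each list up to 4 called members with the largest differences and up to 2 in the less frequent direction, and any member in brassinosteroid lists; 8 higher and 8 lower loci outside the lists with a mean of at least 100; 8 loci called in both conditions with the same sign and a mean of at least 20; and 6 with opposite sign. Symbols, gene starts and sequence came from RefSeq's TAIR10.1, matched by locus name, and 705 loci were not in it. No column lacked a sample. Near-identical gene copies may share reads. Figures were drawn with matplotlib 3.10.9.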

Additional observations from a re-analysis of the deposited data

Results flagged for a closer look

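The difference between the lines was not the same with and without rapamycin, by the test of the change in limma (rapamycin minus mock), for 7893 loci with the replicate block. Among loci called in both conditions with opposite sign, the change of the log2 difference was 9.47 for PELPK1 (adjusted p = 1.85e-11), 9.19 for PELPK2, 7.98 for AT4G38080, 7.06 for AT4G36610, 2.48 for AT5G44580 and 2.47 for AT5G24580. Each was lower in RiD than in Col-0 under mock and higher under rapamycin. PELPK2 and AT4G36610 were under the worth of 3 reads in both RiD mock libraries, so that their changes depend on the constant added. The mock side of these reversals was called with the block and not without it, when the adjusted p of the mock difference was 0.102 for PELPK1 and 0.698 for PELPK2. Groups of 2 libraries are too small for a check of single libraries that stand apart.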

How the results depend on the processing

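Pairing by library number carried many calls. Without the replicate block the loci called under rapamycin were 6143 in place of 12211, under mock 0 in place of 83, for the change 2341 in place of 7893, and in both conditions with the same sign 0 in place of 56. The 83 mock calls became 47 with no filter on low values, 8 with no trend or robust moderation and 0 with the compared libraries alone, and the 56 loci called in both became 30, 3 and 0. Leaving out each library in turn gave 9132 to 12084 calls under rapamycin, 25 to 343 under mock, 5693 to 8279 for the change and 18 to 224 in both conditions. Of 463 named and listed genes, 40 took both signs over the alternatives, and 0 of these 40 were called in the fit reported. Only the seed storage gene SESA4, with a log2 difference of -0.26, turned its sign and was then called, at 2.88 (adjusted p = 0.0346) without Col-0 rapamycin library 1, and it was called at -3.40 (adjusted p = 0.0210) without Col-0 rapamycin library 2. Without the block 345 of 463 genes kept their side of the threshold and their direction, 116 were no longer called and 2 became called. TMM factors gave 5985 loci higher and 6208 lower under rapamycin in place of 6314 and 5897, and moved the median of all loci to -0.03, with 453 of 463 genes on the same side of the threshold. The causes of these shifts were not tested. With 2 libraries a group, 4 residual degrees of freedom and 3 reads worth 2.19 to 4.18 normalized counts, low loci and small differences are the least certain.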

Other observations

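Genes of iron and copper uptake were looked at after IRT1 and FRO2 had been seen among the loci that differed in both conditions, so that their counts are a description. Over all loci 52.4% were called in either direction with rapamycin and 0.356% under mock. Of 21 iron and copper genes 20 were tested. With rapamycin 10 of them were called higher and 4 lower in RiD, against 5 and 2 under mock. IRT1 and FRO2, which led to the choice, were among the 5. Without the block 7 of the 20 were called higher and 3 lower with rapamycin and 0 under mock. FIT (FRU in the reference), the bHLH factor that drives IRT1 and FRO2, had 130.4 and 123 in Col-0 and 279.6 and 327 in RiD with rapamycin (log2 1.25 ± 0.17), and 166 and 168 and 201 and 314 under mock (log2 0.59 ± 0.17, not called). bHLH39, its partner, had 48.3 and 27.5 in Col-0 and 82 and 87.9 in RiD with rapamycin, where it was called higher. It differed by 0.77 ± 0.26 under mock, where it was not called. In neither condition were bHLH38, bHLH101, PYE and AHA2 called (adjusted p by limma under rapamycin = 0.123, 0.296, 0.125 and 0.128). MTPA2, a zinc transporter of the vacuole, was higher by 1.55 ± 0.18 and 0.97 ± 0.18, and the copper transporter COPT2 by 1.02 ± 0.36 and 2.03 ± 0.36, called in both. Without the block COPT2 was not called under rapamycin (adjusted p = 0.103). CYP82C4, which serves iron uptake, had 14.2 and 24 in RiD mock, 0 and 1.47 in Col-0 mock and 0 in both RiD rapamycin libraries. FER4, a ferritin, was lower in both conditions (-0.45 ± 0.09 and -0.46 ± 0.09), and FER1 was higher under rapamycin (0.71 ± 0.09) and not called under mock (-0.17 ± 0.09). NAS4, of nicotianamine synthesis, and OPT3, a phloem transporter, were lower under rapamycin (-4.59 ± 0.34 and -1.49 ± 0.10) and not called under mock. FSD1 was called lower under mock (-1.02 ± 0.14) and not called under rapamycin (-0.33 ± 0.14).

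Light-harvesting genes of the LHCB1 to LHCB3 families were likewise chosen after their values were seen. Over all loci 0.356% were called under mock, 25.3% lower under rapamycin, and 33.9% for the change in either direction. Of these 9 genes 5 were called higher in RiD under mock and 0 lower. Under rapamycin 0 were called higher and 8 lower, and the change was called lower for all 9. Without the block 0 were called under mock, 3 lower under rapamycin and 1 lower for the change, and LHCB2.1 and LHCB2.2 were not called under rapamycin (adjusted p = 0.436 and 0.142). LHCB1.1 (CAB2 in the reference) had 561 and 262 in Col-0 mock, 3080.1 and 1619.8 in RiD mock, 394 and 207 in Col-0 with rapamycin and 376 and 221 in RiD with rapamycin. RiD mock was thus the group that stood apart for this gene (log2 2.54 ± 0.11 under mock and 0.01 ± 0.11 under rapamycin). LHCB2.1 and LHCB2.2 were higher by 1.06 ± 0.11 and 0.91 ± 0.12 under mock and lower, at log2 -0.58 and -0.89, under rapamycin. In each of these 4 groups library 1 exceeded library 2 for LHCB1.1, LHCB2.1 and LHCB2.2. LHCB1 copies share nearly all of their sequence, and how reads were divided among them is not stated in the sources used here.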
